A study of Homo sapiens with 4 samples.

Results

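The genes described here are 53 human genes of the interferon response and of antigen presentation, taken by symbol from a list and matched to Ensembl identifiers. All 53 had a row in the deposited table of 20263 genes, and all 53 were among the 14105 genes with enough counts to be tested. They were read in 4 bulk mRNA libraries of HCT116, a long-established line of human colon carcinoma cells. The N_12 group was 2 libraries of cells given the compound N_12 for 24 h, and the DMSO group was 2 libraries of cells given the solvent DMSO, both in medium with 10% serum. The series title calls N_12 a derivative of nilotinib, a kinase inhibitor. The treatment tag of the N_12 samples reads HJJ_3_5 instead, and the labels give no dose.

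Interferons are secreted proteins that cells make when they sense viral nucleic acid. They bind receptors whose Janus kinases activate STAT transcription factors, which together with IRF factors switch on a large set of interferon-stimulated genes. Some of these block viral replication, others sense RNA, and others load peptides onto HLA class I molecules so that T cells can inspect the cell. The state of this system in a tumour cell is of interest because it sets how visible the cell is to the immune system.

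N_12 libraries held 41717938 and 39865327 counts and DMSO libraries 31120459 and 29769568. Epithelial markers were abundant: the 8 listed summed to 3509 and 4177 CPM in N_12 and to 5299 and 4302 CPM in DMSO, where CPM is a count scaled to library size, with TMM factors. ELF3, an epithelial transcription factor gene, was the 1 marker of these 8 that edgeR called: it fell to 86.8 and 101 CPM in N_12, against 223 and 191 CPM in DMSO (log2 fold change -1.14, adjusted p = 0.0155). The keratin genes KRT8 and KRT19 were also below DMSO in both N_12 libraries. KRT8 stood at 1350 and 1524 CPM in N_12 and 1959 and 1742 CPM in DMSO. Neither was called by edgeR (adjusted p = 0.181 for KRT8 and 0.231 for KRT19). EPCAM and CDH1 lay below DMSO too, also uncalled by edgeR (adjusted p = 0.152 and 0.151). KRT18 and CLDN3 overlapped between the groups, with log2 fold changes of 0.015 and -0.019. The part of these markers in the results below was not tested. Another marker, CLDN4, differed widely within each group, at 70.6 and 376 CPM in N_12 and 458 and 24.3 CPM in DMSO. PTPRC, the pan-leukocyte marker, and CD3E, a T cell marker, were at 0 in every library, as were the dendritic cell markers CD1C, CLEC9A and CLEC4C. The 9 leukocyte markers together reached 49.9 to 56.7 CPM in N_12 and 45.4 to 51.3 CPM in DMSO, most of it CD68, a lysosomal protein gene. The 6 dendritic cell markers summed to 20.1 to 21.5 CPM in N_12 and 22.7 to 24.0 CPM in DMSO. Nearly all of that sum was ITGAX and LAMP3. Fibroblast markers (6 genes, COL1A2, DCN and LUM at 0) summed to 55.5 to 60.2 CPM in N_12 and 61.2 to 64.9 CPM in DMSO, nearly all of it COL1A1. Endothelial markers (5 genes) reached at most 2.35 CPM in N_12 and 1.61 CPM in DMSO.

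The interferon and antigen presentation genes did not move as a block in N_12. In edgeR's quasi-likelihood fit, with p-values adjusted over all 14105 genes by Benjamini-Hochberg, 0 of the 53 were called, against 2.25% of all tested genes (1.43% called lower and 0.822% higher). At an unadjusted p under 0.05, 10 lay lower (18.9%) and 9 higher (17%) in N_12. Together these were 19 of 53 (35.8%), against 21.8% of all tested genes, 10.8% lower and 11% higher. DESeq2 called 9 of the 53, 8 lower and 1 higher, against 8.68% of all genes it was run on, and limma-voom called 0, against 0.929%. The median log2 fold change was -0.010 over the 53 and 0.0091 over all tested genes, with 29 members below 0 and 24 above. For 18 members (34%) the N_12 libraries were both under the DMSO pair, and for 20 (37.7%) both over it. The shares over all tested genes were 26.8% and 27.9%. Whether replicates are separate cultures is not stated in the labels, so p-values measure only the spread between these libraries, which may be technical. In bulk libraries, a lower level in every cell and a smaller share of cells expressing a gene cannot be told apart.

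In this fit the estimate farthest from 0 was that of BST2, at 1.99-fold. No member reached 2-fold, and few of all tested genes did (569 of 14105). That limit moved with the processing: on the log2 scale BST2 was -1.0024 with RLE scaling and -1.0032 with DESeq2, and without DMSO replicate 2 BST2, IFI6, RIGI and SAMD9 passed 2-fold, SAMD9 with 1.54. Without N_12 replicate 1 BST2 (-1.01) and IFI6 (-1.06) did, and without N_12 replicate 2 SAMD9 (1.08). For 41 of the 53 the 95% interval lay within 2-fold in both directions. A 1.5-fold difference or more was estimated for 11 members (20.8%) and for 15.4% of all tested genes.

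**Figure D1:**
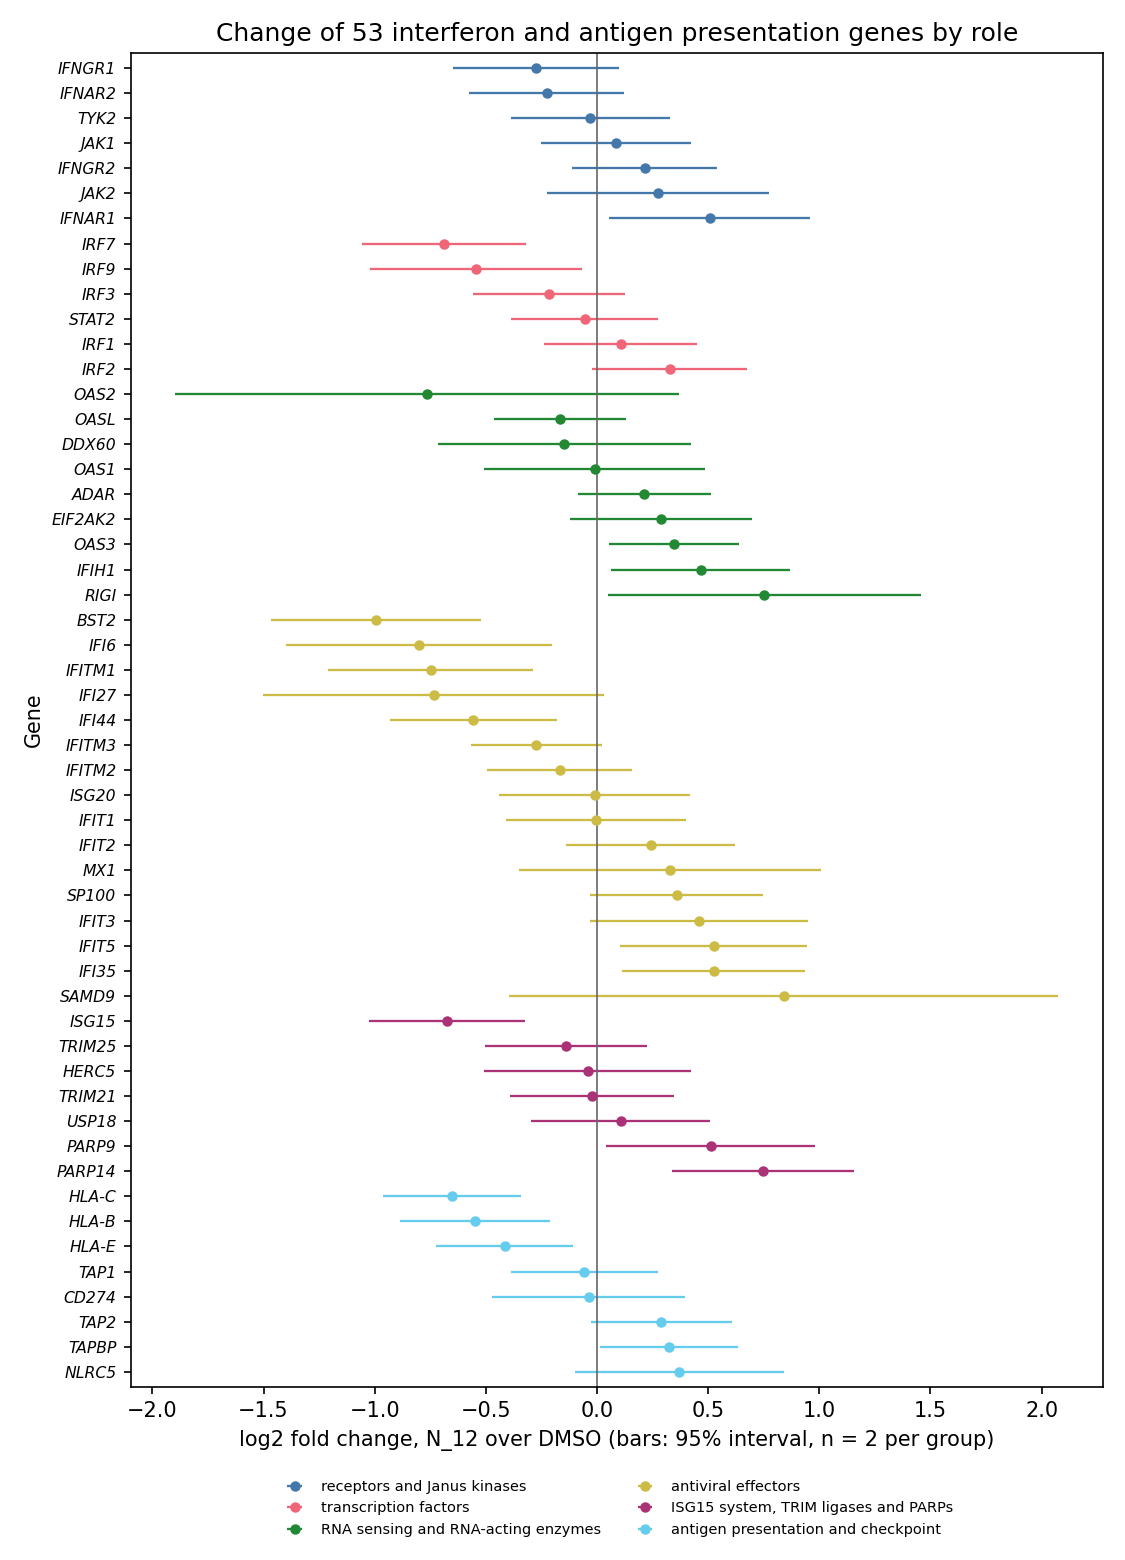
Log2 fold change of N_12 over DMSO (horizontal axis) for each of the 53 genes (rows, coloured by role). Bars are 95% intervals computed from the edgeR fit (n = 2 libraries per group). Points lie on both sides of 0 in every role, and 19 intervals lie wholly on one side of 0.

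Many of these genes carry the interferon-stimulated response element (ISRE), the site bound by a complex that holds STAT2 and IRF9, and by other IRFs. RefSeq promoter windows (GRCh38.p14, from 250 bases before to 50 after the gene start) were matched for 42 of the 53 genes. The ISRE letters, taken as GAAA, any 2 bases and GAAA and searched on both strands, stood in 24 of these 42 windows (57.1%), against 3.65% of all 27305 windows and 2.79% of the 11150 windows of tested genes. For TTCNNNGAA, the letters of the GAS site bound by STAT dimers and the same on both strands, the shares were 23.8% and 7.88% of all windows. The stretches below come from genes that lay below 0, near 0 and above 0 in N_12, each read 5′ to 3′ on the gene's strand, with each match in capitals (a pair of TTTC blocks is the same element on the other strand, and matches that overlap are capitalised as one run).
BST2, chr19:17405725-17405780, minus strand: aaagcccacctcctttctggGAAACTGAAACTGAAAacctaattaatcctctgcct
ISG15, chr1:1013364-1013419, plus strand: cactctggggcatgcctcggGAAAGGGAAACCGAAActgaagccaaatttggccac
IFI44, chr1:78649751-78649800, plus strand: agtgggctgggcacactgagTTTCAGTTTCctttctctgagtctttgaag
IFIT1, chr10:89392487-89392536, plus strand: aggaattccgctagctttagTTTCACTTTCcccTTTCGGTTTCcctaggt
IFIT5, chr10:89414503-89414552, plus strand: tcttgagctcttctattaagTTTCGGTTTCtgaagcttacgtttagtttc
OAS3, chr12:112938311-112938360, plus strand: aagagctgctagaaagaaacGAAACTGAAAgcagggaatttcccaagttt
PARP14, chr3:122680790-122680839, plus strand: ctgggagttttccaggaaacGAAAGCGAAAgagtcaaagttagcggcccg

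Genes with these letters did not lean one way. The 24 with a match had a median log2 fold change of -0.017, ranging from -0.99 for BST2 to 0.84 for SAMD9, with 14 below 0 and 10 above. The 18 without had a median of 0.095, with 8 below 0 and 10 above. A match is a description of letters in this window and not evidence of binding.

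At the top of the pathway, the 7 receptor and Janus kinase genes had a median log2 fold change of 0.085 (range -0.27 to 0.51), and none was called. IFNAR1, a chain of the type I interferon receptor, stood at 52.1 and 38.0 CPM in N_12 and at 29.5 and 34.0 CPM in DMSO. Both N_12 libraries were above both DMSO libraries, and edgeR gave a log2 difference of 0.51 (SE 0.20, adjusted p = 0.191). Its partner chain IFNAR2 lay the other way, at 32.1 and 32.5 CPM in N_12 against 38.9 and 36.7 CPM in DMSO (-0.23, SE 0.15, adjusted p = 0.412). Of the IFNAR2 exon bases 44.2% are shared with the same-strand gene AP000295.1, so its count depends on how reads were assigned. IFNGR1, the ligand-binding chain of the interferon gamma receptor, had 56.1 and 45.7 CPM in N_12 and 63.0 and 60.1 CPM in DMSO (-0.27, SE 0.16, adjusted p = 0.359). JAK1, the kinase shared by both receptor types and the gene with most counts of this role, was at 145.9 and 145.8 CPM in N_12, between the 123.6 and 151.5 CPM of DMSO.

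Among the 6 transcription factors, 4 lay below 0 and 2 above (median -0.13). IRF7, the factor that amplifies interferon production, had 25.8 and 29 CPM in N_12, against 46.4 and 41.9 CPM in DMSO. The groups did not overlap, and edgeR gave -0.69 (SE 0.16, adjusted p = 0.0689). IRF9, the DNA-binding subunit of the factor that reads the ISRE, was scarce at 4.25 and 3.75 CPM in N_12 and 5.90 and 5.78 CPM in DMSO (-0.55, SE 0.21, adjusted p = 0.183). Exon bases of IRF9 are shared with the same-strand gene AL136295.5 for 48.4%. STAT2, its partner, was at 76.9 and 86.3 CPM in N_12 and 88.9 and 80.5 CPM in DMSO, and the groups overlapped. IRF2, mostly a repressor of interferon-stimulated genes, stood at 27.6 and 26.5 CPM in N_12 and 21.7 and 21.4 CPM in DMSO (0.33, SE 0.15, adjusted p = 0.255).

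The 9 genes of RNA sensing and RNA-acting enzymes had the highest median of the 6 roles, 0.21, with 5 above 0, 4 below and none called. RIGI, the cytosolic sensor of short double-stranded RNA, had 80.7 and 68.9 CPM in N_12. In DMSO it had 31.8 and 56.9 CPM, so the DMSO libraries differed from each other more than N_12 replicate 2 did from DMSO replicate 2. Its log2 fold change was 0.75 (SE 0.29, adjusted p = 0.206 by edgeR). Without DMSO replicate 2 it was 1.23 (adjusted p = 0.0137) and without DMSO replicate 1 it was 0.40 (adjusted p = 0.530). IFIH1, which encodes MDA5, the sensor of long double-stranded RNA, stood at 71.1 and 63.4 CPM in N_12 and 42.5 and 54.8 CPM in DMSO (0.47, SE 0.17, adjusted p = 0.179). OAS3, a synthetase of the 2-5A signal that activates RNase L, was at 148 and 152 CPM in N_12 and at 119 and 117 CPM in DMSO (0.35, SE 0.13, adjusted p = 0.175). ADAR, which edits adenosines in double-stranded RNA and had most counts here, gave 351 and 382 CPM in N_12 and 301 and 331 CPM in DMSO (0.21, SE 0.13, adjusted p = 0.373). Per kilobase of exon, OAS3 had 18.2 CPM in N_12 and 14.3 CPM in DMSO. The related enzyme genes OAS1 and OAS2 were far scarcer by this measure, at 0.850 and 0.0766 in N_12 and 0.856 and 0.131 in DMSO.

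The 16 antiviral effectors lay on both sides, with a median of -0.0079, 9 below 0 and 7 above. BST2, which encodes tetherin, a membrane protein that holds budding virions to the cell, had the smallest p of all 53. It stood at 3.82 and 3.83 CPM in N_12 and at 8.23 and 7.01 CPM in DMSO. Its log2 fold change was -0.99 (SE 0.20, 95% interval -1.47 to -0.52), and the adjusted p of 0.0531 in edgeR lay just outside the threshold of 0.05. IFITM1, one of the membrane proteins that hinder virus entry, had 6.22 and 6.92 CPM in N_12 and 9.90 and 12.2 CPM in DMSO (-0.75, SE 0.20, adjusted p = 0.0942). IFITM1 shares 32.5% of its exon bases with its same-strand neighbour IFITM2, so its count depends on how reads were assigned. The more abundant paralog IFITM3 was at 286 and 313 CPM in N_12 and 372 and 352 CPM in DMSO (-0.27, SE 0.13, adjusted p = 0.261). IFI44, an interferon-induced cytoplasmic protein gene, gave 13.6 and 13.1 CPM in N_12 and 19.5 and 19.8 CPM in DMSO (-0.56, SE 0.16, adjusted p = 0.112).

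The other effectors named lay on either side of 0. IFI6, a mitochondrial antiapoptotic protein gene, had 43.9 and 31.9 CPM in N_12 and 79.7 and 52.5 CPM in DMSO. edgeR gave IFI6 -0.80 on the log2 scale (SE 0.25, adjusted p = 0.140), and -1.07 without DMSO replicate 2 (adjusted p = 0.0287) and -0.47 without DMSO replicate 1 (adjusted p = 0.486). IFIT5, an RNA-binding tetratricopeptide protein gene, stood at 27.3 and 22.7 CPM in N_12 and 15.8 and 18.9 CPM in DMSO (0.52, SE 0.18, adjusted p = 0.156). IFI35 was similar in size, at 18.1 and 20.1 CPM in N_12 and 14.4 and 12.2 CPM in DMSO (0.53, SE 0.18, adjusted p = 0.149). IFIT1, the classic sensor of viral mRNA caps and a relative of IFIT5, overlapped between groups at 122 and 94.6 CPM in N_12 and 97.7 and 120 CPM in DMSO (-0.0055, 95% interval -0.41 to 0.40). SAMD9, a restriction factor of poxviruses, showed how far libraries of one group could differ: 26.7 and 18.3 CPM in N_12, and 7.77 and 17.4 CPM in DMSO. Its interval ran from -0.40 to 2.08. It was called without DMSO replicate 2 (1.54, adjusted p = 0.0159), and gave 0.37 without DMSO replicate 1 (adjusted p = 0.671).

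**Figure D2:**
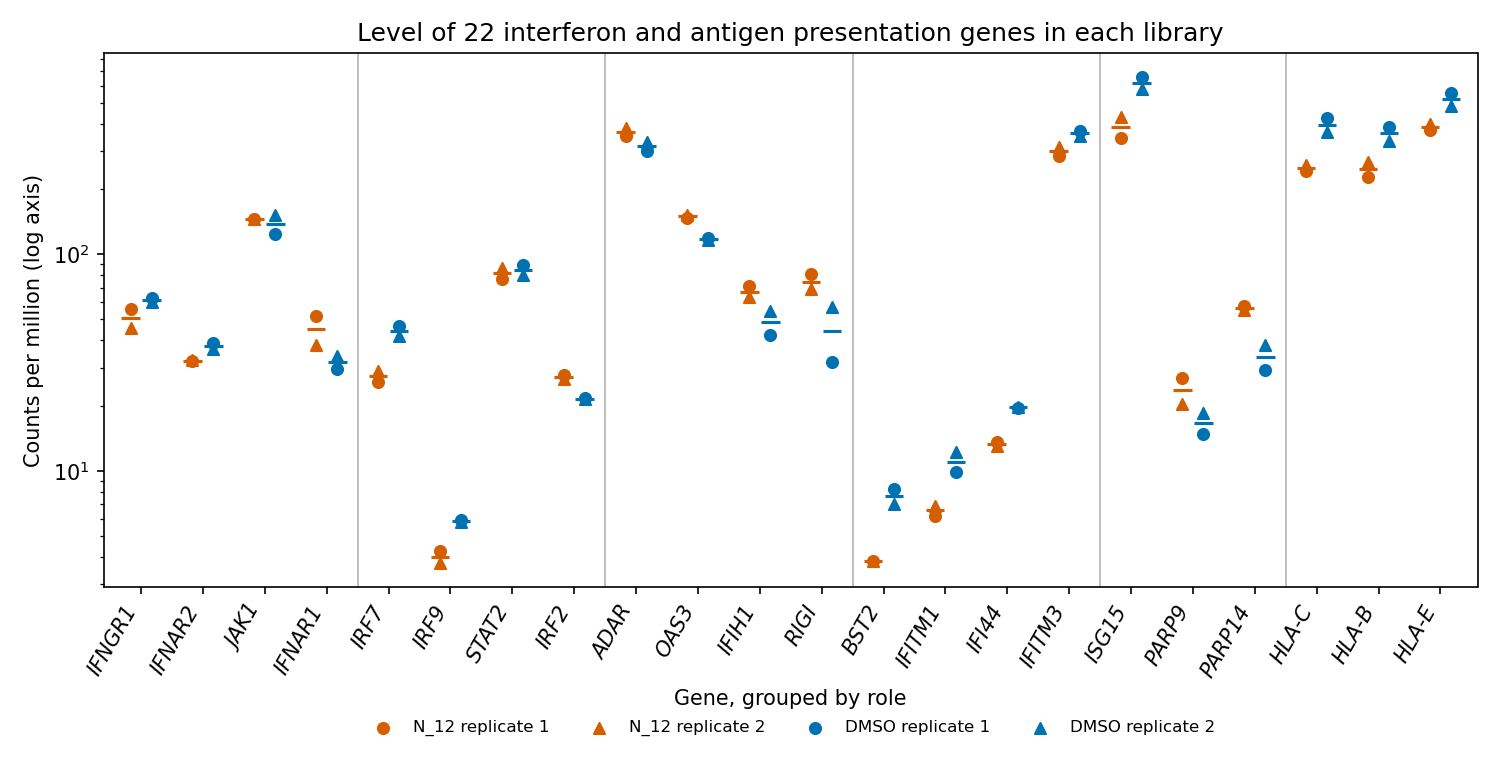
CPM on a log axis in each library for the 22 genes named by rule, grouped by role, with N_12 in orange left of DMSO in blue. Circles and triangles mark replicates 1 and 2 and short lines the group means. ISG15 stands at 345 and 430 CPM in N_12 and 656 and 581 CPM in DMSO.

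The 7 genes of the next role encode the ubiquitin-like modifier ISG15, its ligase and protease, TRIM ubiquitin ligases and interferon-induced PARPs, and the ends of their range were ISG15 and PARP14. ISG15 had the highest level of the 53 per kilobase of exon in both groups, 412 CPM per kilobase in N_12 and 658 in DMSO. It stood at 345 and 430 CPM in N_12 against 656 and 581 CPM in DMSO, with no overlap (log2 fold change -0.68, SE 0.15, adjusted p = 0.0641 by edgeR). The genes that attach and remove it did not share this: HERC5, the ISG15 ligase, averaged 128 ± 14.2 CPM in N_12 and 132 ± 34.6 CPM in DMSO (SD, n = 2 each). USP18, the ISG15 protease and a brake on receptor signalling, averaged 11.3 ± 0.0613 CPM in N_12 and 10.5 ± 0.248 CPM in DMSO. PARP14, a mono-ADP-ribosyltransferase, lay the other way, at 57.4 and 55.2 CPM in N_12 and 29.1 and 38.0 CPM in DMSO (0.75, SE 0.18, adjusted p = 0.0723). PARP9, a relative of it, followed with 26.9 and 20.4 CPM in N_12 and 14.7 and 18.5 CPM in DMSO (0.51, SE 0.20, adjusted p = 0.201).

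Among the antigen presentation genes the HLA heavy chains had the smallest p-values. HLA-C, a class I heavy chain that presents peptides to T cells and natural killer cells, was at 243 and 259 CPM in N_12 and 424 and 365 CPM in DMSO (log2 fold change -0.65, SE 0.13, adjusted p = 0.0535 by edgeR). HLA-B followed at 227 and 267 CPM in N_12 and 388 and 335 CPM in DMSO (-0.55, SE 0.15, adjusted p = 0.0926). HLA-E, the ligand of an inhibitory natural killer cell receptor, had most counts of this role, 377 and 400 CPM in N_12 and 554 and 482 CPM in DMSO (-0.42, SE 0.13, adjusted p = 0.134). In none of these did the groups overlap. Reads of these similar and highly polymorphic genes can be assigned to one another or lost, so their separate counts are uncertain.

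The peptide-loading members lay on both sides of 0. TAPBP, which encodes tapasin, the bridge between class I molecules and the peptide transporter, had 196 and 173 CPM in N_12 and 151 and 145 CPM in DMSO (0.32, SE 0.13, adjusted p = 0.213). TAP2, a subunit of the transporter itself that shares 32.3% of its exon bases with AL669918.1, averaged 104 ± 8.23 CPM in N_12 and 85.0 ± 3.50 CPM in DMSO (SD, n = 2 each). The other subunit, TAP1, averaged 118 ± 11.3 CPM in N_12 and 123 ± 11.3 CPM in DMSO. NLRC5, the transactivator of class I genes, averaged 16.2 ± 3.58 CPM in N_12 and 12.5 ± 0.267 CPM in DMSO. CD274, which encodes the checkpoint ligand PD-L1, averaged 13.2 ± 2.10 CPM in N_12 and 13.6 ± 0.468 CPM in DMSO, and its 95% interval ran from -0.47 to 0.40 on the log2 scale. Over the 8 genes of this role the median was -0.047, with 5 below 0 and 3 above.

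With DESeq2 the calls fell on BST2 (adjusted p = 0.00940), HLA-B (0.0203), HLA-C (0.00112), IFI44 (0.0422), IFI6 (0.0297), IFITM1 (0.0411), IRF7 (0.00341) and ISG15 (0.00416) as lower and on PARP14 (0.00616) as higher. A correction of each library for gene GC content, with edgeR, called BST2, HLA-B, HLA-C, HLA-E, IRF7 and ISG15 lower and PARP14 higher, 7 of 53 against 7.24% of all genes. HLA-C was also called without DMSO replicate 2 (log2 fold change -0.76, adjusted p = 0.0497). That fit called 3.11% of all genes. Leaving out either N_12 library left edgeR with no called gene at all, and without DMSO replicate 1 it called no member and 1.63% of all genes.

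Other settings of edgeR called between 0 and 8 members. Scaling by total counts (2.16% of all genes called), by RLE (2.28%) and by upper quartile (2.28%) called no member. With no expression filter HLA-C was called (2.2% of all genes), and with a stricter one of 1 CPM in every library HLA-C and BST2 (3.31%). A fit with the replicate number as a block called 8 members, against 6.83% of all genes.

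Among the 53, the genes that lay lower tended to be short and rich in G and C. Of the 17 members with a GC content of 55% or more, 14 lay below 0 and the median log2 fold change was -0.55. The 18 members from 45% up to 55% had a median of 0.037, and the 18 under 45% a median of 0.32 with 6 below 0. Over all tested genes the medians in the same ranges were 0.0083, 0.014 and 0.0048. Across the 53 genes, which share the 4 libraries and are not independent replicates, GC content and log2 fold change gave Pearson's r = -0.51 and Spearman's rho = -0.45, against r = 0.0026 over 14089 tested genes. Exon length gave r = 0.58 and rho = 0.53 over the 53 (on log2 length) and r = 0.10 over all tested genes. Neither relation was seen over the 121 tested genes of the other pathway lists described below. There GC content gave r = -0.0038 and exon length r = 0.052. The parts of GC content and length were not tested apart.

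Differences between libraries of one group also went with GC content. Over the 53, GC content gave r = -0.63 with the difference of N_12 replicate 1 minus 2 and r = 0.66 with that of DMSO replicate 1 minus 2. Over all tested genes these were -0.39 and 0.21. After the GC correction the relation of GC content with log2 fold change over the 53 was r = -0.52. That correction follows the GC trend of all tested genes in each library, so it could not remove a trend of the members alone. Over all tested genes r was 0.0026 before it and -0.0063 after. When each library was left out in turn, the relation over the 53 lay between -0.31 and -0.63. IFI44, at 39.2% GC and -0.56, and TAPBP and IFI35, at 60.8% and 58.0% GC and above 0, lay off this trend.

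**Figure D3:**
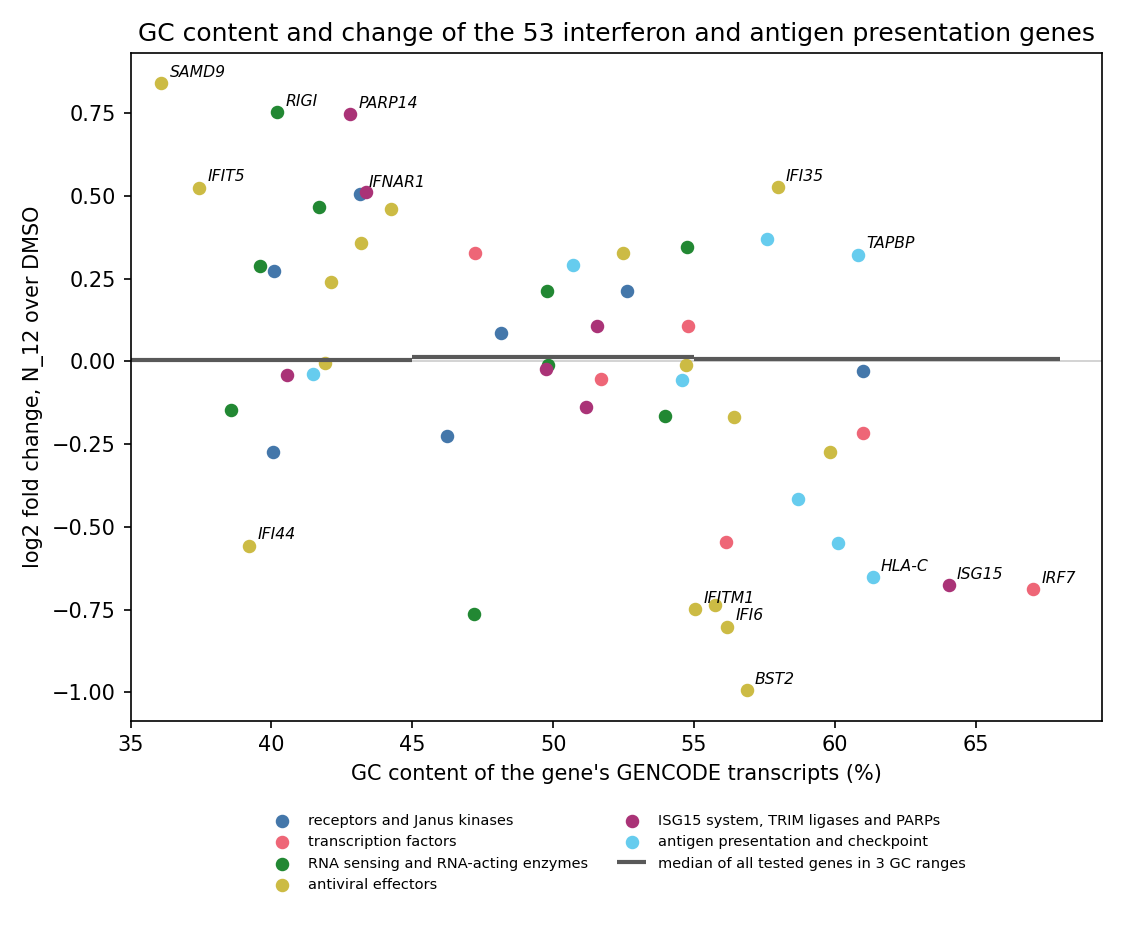
Log2 fold change of N_12 over DMSO (vertical axis) against the GC content in percent of the gene's GENCODE transcripts (horizontal axis) for the 53 genes, coloured by role. Grey lines are medians of all tested genes under 45%, from 45% to 55% and above. The 53 genes run from a median of 0.32 in the lowest range to -0.55 in the highest, while the grey lines stay near 0.

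Other genes of the pathway were read from lists of 141 symbols, of which 121 had enough counts. edgeR called none higher and 2 lower (1.65%, against 2.25% of all tested genes), and the median was -0.0059. One of these, MYD88, the adaptor of Toll-like and interleukin 1 receptors, fell: it stood at 7.10 and 10.5 CPM in N_12 and 21.0 and 20.5 CPM in DMSO (log2 fold change -1.23, SE 0.22, adjusted p = 0.0366 by edgeR). The call ended with limma-voom (adjusted p = 0.0632). The log2 fold change of MYD88 was -0.99 without N_12 replicate 1 and -1.55 without N_12 replicate 2. Those edgeR fits called no gene of the table, so they cannot show whether its call held.

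Interferon genes themselves were mostly silent or low. IFNA2 and IFNG had 0 counts in every library, which allows up to 3 counts per library, and IFNB1 had 8 and 4 counts in N_12 and 2 and 4 in DMSO. The lambda interferons were present: IFNL1 averaged 4.64 ± 0.285 CPM in N_12 and 4.88 ± 0.701 CPM in DMSO (SD, n = 2 each). IFNL2 stood at 7.91 and 7.24 CPM in N_12 and 7.41 and 6.90 CPM in DMSO (log2 fold change 0.081, 95% interval -0.36 to 0.52). IFNL3, nearly identical to IFNL2 and so uncertain in its count, averaged 8.24 ± 0.730 CPM in N_12 and 7.98 ± 0.985 CPM in DMSO. IFNE was at 0.878 and 0.785 CPM in N_12 and 0.590 and 0.476 CPM in DMSO (0.64, SE 0.42, adjusted p = 0.406).

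Of the 16 genes of the lambda receptor and of negative regulation none was called. SOCS3, an inhibitor of Janus kinase signalling, came closest, at 57.8 and 70.4 CPM in N_12 and 107 and 94.2 CPM in DMSO (log2 fold change -0.65, SE 0.16, adjusted p = 0.0772 by edgeR, 0.00848 by DESeq2). PTPN2, a phosphatase of Janus kinases, had 29.4 and 26.1 CPM in N_12 and 36.3 and 35.6 CPM in DMSO (-0.37, SE 0.15, adjusted p = 0.212). Among 18 tested adaptors and sensors of nucleic acids, MYD88 apart, TRIM56 was at 104 and 106 CPM in N_12 and 79.9 and 84.7 CPM in DMSO (0.35, SE 0.13, adjusted p = 0.179). Among 50 further tested interferon-stimulated and IRF or STAT family genes, 25 lay on each side of 0. WARS1, a tryptophanyl-tRNA synthetase gene induced by interferon gamma and also by the amino acid stress factor ATF4, had 136 and 97.7 CPM in N_12 and 64.0 and 69.0 CPM in DMSO (0.81, SE 0.18, adjusted p = 0.0640).

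Peptide supply and class I assembly gave no call in 19 tested genes, of which 12 lay below 0 and 7 above (median -0.097). ULBP1, a stress ligand of the natural killer cell receptor NKG2D, stood at 29.9 and 22.5 CPM in N_12 and 14.2 and 17.1 CPM in DMSO (0.74, SE 0.20, adjusted p = 0.0950 by edgeR, 0.0291 by DESeq2). Of the other NKG2D ligand genes listed, MICA (-0.38) and ULBP2 (-0.097) lay below 0 and MICB (0.18) and ULBP3 (0.12) above. PSME1, a subunit of the proteasome activator PA28, had 125 and 136 CPM in N_12 and 179 and 168 CPM in DMSO (-0.42, SE 0.13, adjusted p = 0.134). Of the class II pathway, 14 genes were tested and none was called (median 0.015). CD74, the invariant chain, was low at 2.37 and 3.24 CPM in N_12 and 1.18 and 1.67 CPM in DMSO (0.98, SE 0.31, adjusted p = 0.135). CTSS, the protease that trims it, was at 0.807 and 0.662 CPM in N_12 and 0.361 and 0.204 CPM in DMSO (1.37, SE 0.51, adjusted p = 0.179).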

How the data were processed

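The authors deposited a table of raw counts, whole numbers per gene, keyed by human Ensembl identifiers. Libraries of mRNA were made with a kit, per the labels' protocols. Aligner, counter and strand setting: not given in the sources used here, so reads of overlapping genes cannot be told apart. GRCm38 and mm10, both mouse builds, stand in the submitters' processing notes although the identifiers are human, so the build behind the counts is unknown.

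Symbols were found for 20148 of 20263 identifiers. GENCODE 29 supplied exon length, GC content and exon overlap. Counts were fitted in R 4.3.3 with edgeR 4.0.16 (TMM, expression filter, robust quasi-likelihood test, no replicate term, adjusted p threshold 0.05, two-sided). Each standard error was derived from the log2 fold change and its F value. Alternatives used limma 3.58.1 and DESeq2 1.42.0, and GC content was corrected per library by loess (span 0.5). The procedure was tested on simulated data. Replicates differed beyond sampling noise, with a chi-square of 57.2 per degree of freedom in N_12 and 36.5 in DMSO, so no pair was merged as 1 library deposited more than once.

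The genes, lists, roles and motifs were chosen with earlier results of these data known. Named were, in each role, the 3 members with the smallest p and the one with most counts, and, in each other list, called genes and the 2 with the smallest p. IFI6, IFI35, IFIT5, TAPBP, SAMD9 and IFIT1 were named after their values were seen. So were genes given by group averages, raw counts, levels per kilobase or log2 fold changes alone. One called gene of the other lists is not reported here. The limit of 3 counts covers counting error only.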

Additional observations from a re-analysis of the deposited data

How the results depend on the processing

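The finding of no called member held with total-count, RLE and upper quartile scaling, limma-voom, non-robust dispersions and without DMSO replicate 1. Without either N_12 library no gene of the table was called, so those fits say nothing on the members. Members called were 1 with no expression filter, 2 with a stricter one, 7 with GC correction and 9 with DESeq2, and leaving out single libraries gave 0 to 4. Genes called over the whole table were 317, against 1225 with DESeq2, 1020 with GC correction, 131 with limma-voom, 131 with non-robust dispersions and 0 to 451 when single libraries were left out. The median of the members, -0.010, was 0.036 with total-count scaling and 0.0024 with no expression filter, and -0.0080 to 0.064 when single libraries were left out. Scaling by totals moved the median of all genes to 0.056. IFIT1 changed sign with total-count scaling (0.040) and with no expression filter (0.0040). With single libraries left out IFIT1 lay between -0.22 and 0.16, STAT2 between -0.14 and 0.020, JAK1 between -0.054 and 0.24 and IFNL2 between -1e-04 and 0.14. The cause was not tested. MYD88 also lost its call with non-robust dispersions (adjusted p = 0.0691 by edgeR).

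The replicate numbers come from sample titles and pair nothing that the labels name, and same-numbered libraries did not deviate together (r = -0.090 over 14105 genes). Over the 53 members, GC content and the difference of replicate 1 minus 2 gave r = -0.63 in N_12 and r = 0.66 in DMSO. On the log2 scale this difference had opposite signs for SAMD9 (0.54 in N_12, -1.16 in DMSO) and RIGI (0.23 and -0.84). IFI6 (0.46 and 0.60) had the same sign in both groups. With the replicate block 8 members and 963 genes were called, 6.83% of all tested.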
